A study of Caenorhabditis elegans and Caenorhabditis briggsae with 12 samples.

Results

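Glutathione S-transferases (GSTs) join the tripeptide glutathione to reactive, electrophilic molecules, and UDP-glucuronosyl transferases (UGTs) join a sugar to lipophilic molecules. Both are conjugating (phase II) enzymes of detoxification, which act after cytochromes P450 and before export pumps, and in nematodes many of their genes are expressed in the intestine. Some GST genes are known targets of SKN-1, the worm counterpart of Nrf2, and *gst-4* is widely used as a reporter of oxidative stress. The members described here are all *C. elegans* genes with a name of the form *gst-*, *gsto-*, *gstk-* or *ugt-* followed by a number, 116 of the 20213 genes in the table. Of these, 49 were GSTs (44 *gst*, 3 *gsto* of the omega class and 2 *gstk* of the kappa class) and 67 were UGTs.

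RNA-seq was done on whole L2 larvae of the wild type strain N2, in 2 groups of 3 biological replicates, of which one stayed at 20 °C (NHS) and the other was collected after 30 min in a water bath at 34 °C (HS). The same was done for the wild type strain AF16 of *C. briggsae*, giving 12 libraries, and the comparison asks how the transcripts of the 2 enzyme families respond to heat shock. The larvae had been starved as L1s after bleaching and then fed for 20 h, and no group carried a mutation or transgene. Because whole animals were extracted, fewer cells of a type and less RNA per cell cannot be told apart. Values are the authors' normalized counts, which are read estimates per gene divided by a normalization factor for each library.

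The 6 *C. elegans* libraries held an estimated 28600000 to 43900000 reads. Normalized counts summed to 32200000 to 32500000 in NHS and to 39400000 to 43000000 in HS, and the 10 most abundant genes took 7.40 to 7.75% of the sum in NHS and 14.5 to 16.22% in HS. All 3 heat shock genes taken as a check (*hsp-16.2*, *hsp-16.41* and *hsp-70*) rose. Lists of markers of intestine (8 genes), hypodermis (6), body wall muscle (4), neurons (4), pharynx (3) and germline (4) were all detected. By limma none of these 29 genes was called, but the sums of several lists differed without overlap. Muscle sums went from between 449005 and 497965 in NHS to between 561704 and 616223 in HS (3 of 4 genes higher at an unadjusted p under 0.05), and pharynx sums from between 124090 and 128291 to between 142842 and 161300 (3 of 3 higher). Neuron sums went from between 8947 and 9775 to between 7903 and 8073 (4 of 4 lower), and germline sums from between 6093 and 6358 to between 5419.7 and 5852 (1 higher and 1 lower). Intestine sums (2 higher and 4 lower) and hypodermis sums (0 higher and 1 lower) overlapped. Their part in the results was not tested. Of 5 yolk and sperm genes of adults, *vit-2* and *vit-5* rose, from a list sum of 14.6 to 19.1 in NHS to one of 60.9 to 109 in HS, and *msp-3* was at 0 in all libraries. The part of these genes in the results was not tested either.

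Heat shock raised a few members of both families strongly, *gst-8* and *ugt-14* among them, and left most within a fold of 2. Few members fell that far, and *ugt-32* and *ugt-5* were the only ones called down. All 116 members passed the minimum mean of 2 over the 6 libraries and were tested, though *ugt-35* and *ugt-38*, with NHS means of 0.655 and 1.52, passed only through HS, where they are high, and so had to differ. A member was called up or down when limma gave an adjusted p below 0.01, over all genes, with more than a 2-fold change on the scale of log2(normalized count + 1). Among the GSTs 5 of 49 were called up (10.2%) and 0 down. Among the UGTs 7 of 67 were called up (10.4%) and 2 down (2.99%). Over all 17551 genes tested, 10.2% were called up and 2.77% down. Without regard to level, the share called up was thus that of the background in both families. At a mean under 100, 0 of 19 GSTs and 5 of 17 UGTs (29.4%) were called up, beside 20.8% of all genes. These 5 UGTs include *ugt-35* and *ugt-38*, which had to differ, and the share of all genes also holds genes that passed only through HS. Of these 19 GSTs, 2 were higher and 2 lower at an unadjusted p under 0.05 by limma. At a mean of 100 or more, 5 of 30 GSTs (16.7%) and 2 of 50 UGTs (4%) were called up, beside 2.76% of all genes. These differences by level were not tested. At an unadjusted p under 0.05 by limma 7 GSTs were lower and 17 higher, while 27 UGTs were lower and 11 higher.

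Among smaller changes, higher values were counted more often in the GSTs and lower values in the UGTs. Without the fold limit 11 GSTs (22.4%) were higher and 3 (6.12%) lower, against 8 UGTs (11.9%) higher and 11 (16.42%) lower, where all genes gave 15.8% higher and 12.9% lower. In 18 GSTs (36.7%) all HS libraries lay above all NHS libraries and in 8 (16.3%) below. In the UGTs these counts were 13 (19.4%) and 25 (37.3%), and over all genes 30.6% and 25.5%. The median log2 fold change was 0.16 for the GSTs (quartiles -0.31 and 0.49) and 0.01 for the UGTs (quartiles -0.42 and 0.35), beside 0.04 for all genes. The UGT median turned negative whichever library was left out (-0.20 to -0.028), while the GST median stayed between 0.12 and 0.17. With a minimum mean of 10 the UGT median was -0.060, the GST median 0.13 and that of all genes -0.017. The difference between the families was not tested, since the members were chosen with earlier results known.

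**Figure D1:**
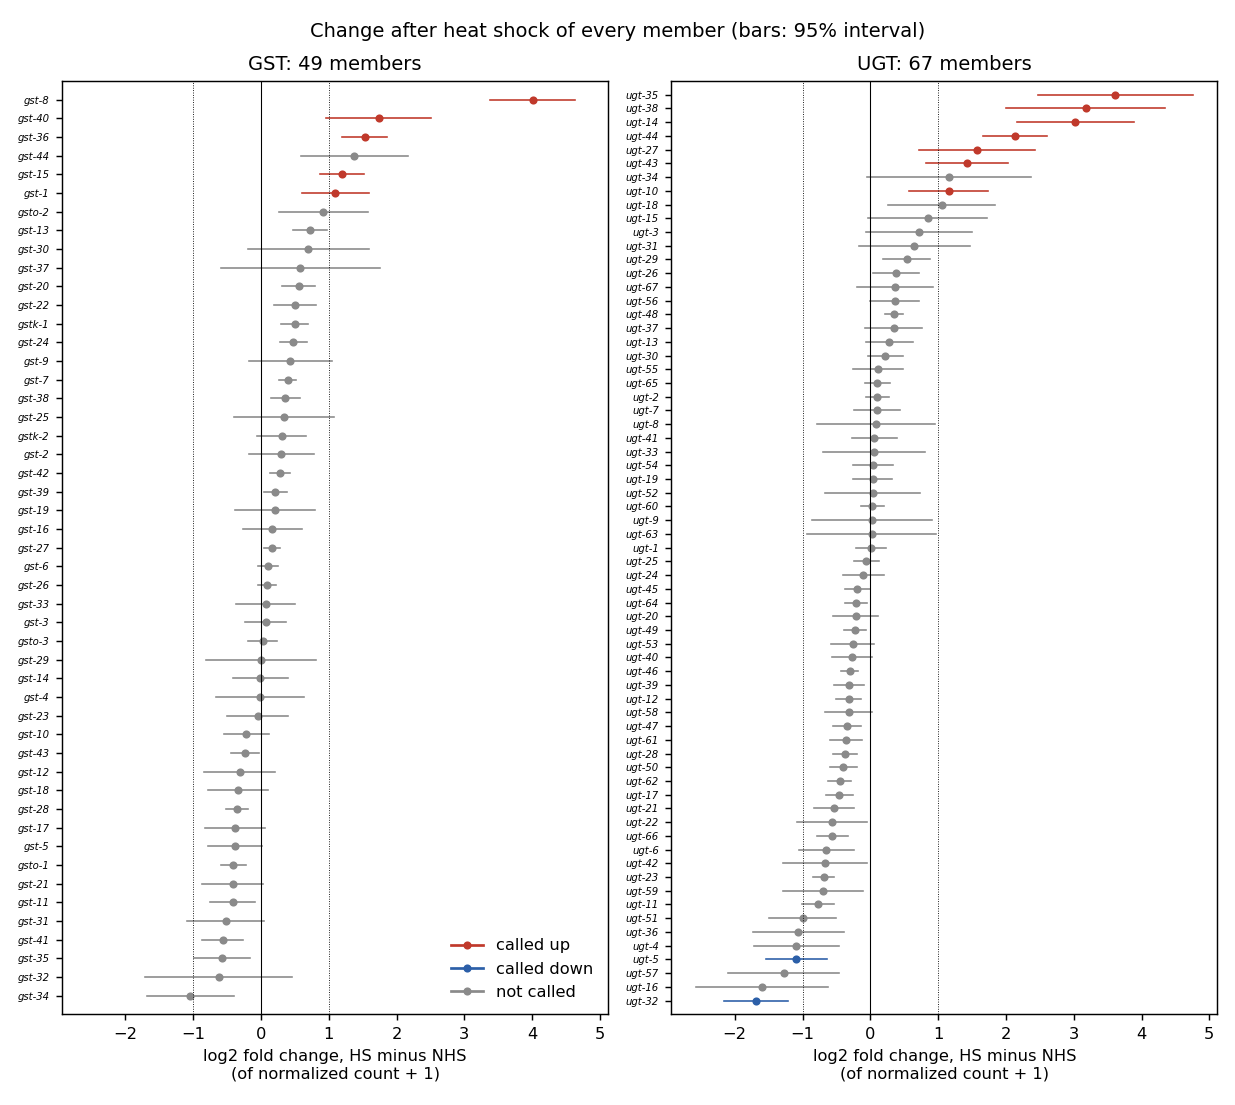
Log2 fold change (HS minus NHS, of normalized count + 1) of every member, sorted within each family, with 95% intervals. Points right of 0 were higher after heat shock; 5 GSTs and 7 UGTs are in red (called up), 2 UGTs in blue (called down), and dotted lines mark the fold limit of 2.

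Scaling sets where 0 lies in this comparison. When the libraries were scaled to equal totals, the median log2 fold change of all genes moved from 0.04 to -0.32, that of the GSTs to -0.20 and that of the UGTs to -0.34. The GST median thus stayed above that of all genes under both scalings, and the UGT median stayed just below it. The share of called genes that were up went from 78.7% to 52.7% over all genes. With equal totals 2 GSTs (*gst-8* and *gst-36*) were called up and 1 (*gst-34*) down, and 5 UGTs (*ugt-14*, *ugt-35*, *ugt-38*, *ugt-43* and *ugt-44*) up and 10 down, where all genes gave 8.46% up and 7.6% down.

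The GST with the largest rise was *gst-8* (chromosome II, 4883712 to 4884599 in WBcel235). Its normalized counts were 12.8, 9.18 and 15.96 in the NHS libraries and 180.0, 171 and 316 in the HS libraries, in the order of the replicate numbers. The groups lay far apart, and the lowest HS value was above every NHS value. In limma it rose by 4.004 on the log2 scale (SE 0.28, adjusted p = 1.3e-05), a 17.6-fold higher mean. *gst-8* lies between *gst-7* and *gst-9*, and these and *gst-6* in the same cluster had log2 fold changes of 0.39, 0.43 and 0.11.

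*gst-36* (chromosome X, 9861646 to 9862960) was already abundant before heat shock. It measured 2125, 1928 and 2007 in NHS and 6399.6, 6714 and 4618 in HS, so that the groups did not overlap and HS replicate 3 was the lowest of its group. Its log2 fold change, 1.53 with an SE of 0.14 (adjusted p = 2.5e-04), was past both limits, and *gst-36* was called up under every alternative. *gst-15* (chromosome II, 13611770 to 13613196) went from 100.3, 143 and 123 to 278, 300.5 and 254, a rise by 1.19 on the log2 scale (SE 0.15, adjusted p = 2.3e-04). Its call was lost only with equal totals, at 0.83.

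*gst-1* (chromosome III, 9059331 to 9060181), a pi class-like enzyme, had the highest normalized count of the family in every library. Its normalized counts were 5496, 5223 and 5403 in NHS and 12278, 14441 and 8538 in HS. All HS libraries were above all NHS libraries, but they spread over a far wider range. Its log2 fold change was 1.10, with an SE of 0.20 (adjusted p = 0.0079). The call was lost when any library other than HS replicate 3 was left out (highest adjusted p = 0.034), with equal totals (log2 fold change 0.74) and with the replicate number as a block (adjusted p = 0.012). The study placed *gst-1* and *gst-36* among genes near heat shock elements bound by HSF-1, a list chosen partly for a rise in these same libraries, so their rise is no independent evidence on that list.

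*gst-40* (chromosome IV, 760502 to 762419) measured 145, 169.5 and 153 in NHS and 538, 329.6 and 798 in HS. The groups did not overlap, and HS replicates 2 and 3 differed more from each other than HS replicate 2 did from NHS. It rose by 1.74 on the log2 scale (SE 0.32, adjusted p = 0.0064). The call was lost without any of the NHS replicates or without HS replicate 1 (highest adjusted p = 0.031), with equal totals and with the replicate block (adjusted p = 0.011). *gst-44* was just short of a call. It had 13.8, 14.2 and 7.10 in NHS and 43.1, 30.2 and 22.1 in HS, a difference of 1.38 on the log2 scale (SE 0.35) whose adjusted p was 0.011, and 0.0028 with the replicate block. It was also called with 5 in place of 1 added before the logarithm and without HS replicate 3.

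No GST was called down. The lowest log2 fold change, -1.04, belonged to *gst-34*, with 34.4, 21.7 and 22.2 in NHS and 10.53, 11.4 and 13.8 in HS (SE 0.29, adjusted p = 0.015). All its HS libraries lay below all NHS libraries, and it was called down with equal totals (-1.38). Several abundant GSTs changed by less than the fold limit but past the adjusted p. Their means rose 1.66-fold for *gst-13*, 1.46-fold for *gst-20*, 1.38-fold for *gst-24* and 1.31-fold for *gst-7* (adjusted p between 5.7e-04 and 0.0034). *gst-42*, of the zeta class whose enzymes isomerize maleylacetoacetate in tyrosine breakdown, rose 1.21-fold (adjusted p = 0.0077), a direction that flipped with equal totals (log2 fold change -0.080 against -0.32 for all genes).

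No gene of the omega and kappa classes was called, and *gsto-1* and *gstk-1* passed the adjusted p below the fold limit. *gsto-1* fell from 2549, 2398 and 2243 to 1706, 2020.3 and 1693, which gave -0.41 on the log2 scale (SE 0.08, adjusted p = 0.0031). *gsto-2* was scarce, at 7.60 to 8.95 in NHS and 13.6 to 18.1 in HS, and its log2 fold change of 0.92 missed the limit (adjusted p = 0.029). *gsto-3* measured 213 to 225 in NHS and 214 to 229.9 in HS, which overlap (log2 fold change 0.02, SE 0.10, and -0.33 with equal totals). Kappa class enzymes are known from mitochondria and peroxisomes. *gstk-1* rose from 681, 808 and 845 to 1093, 1044 and 1139.9, without overlap, by 0.49 on the log2 scale (SE 0.09, adjusted p = 0.0017). *gstk-2* overlapped between groups (log2 fold change 0.30, SE 0.16, adjusted p = 0.16, and -0.052 with equal totals).

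The SKN-1 reporter gene *gst-4* did not differ between groups beyond the spread of its replicates. Its normalized counts were 663, 898 and 1144 in NHS and 704, 838 and 1104 in HS, so replicate 1 was the lowest and replicate 3 the highest in both. On the log2 scale HS minus NHS was -0.02, with a 95% interval from -0.67 to 0.63 in the fit without a block (SE 0.26). With the replicate block the SE was 0.07 (limma, adjusted p = 0.82). *gst-10*, whose product conjugates the lipid peroxidation product 4-hydroxynonenal, measured 3676, 4359.6 and 4779 in NHS and 3738, 3073 and 4241 in HS. These overlapped, with a difference of -0.22 on the log2 scale (SE 0.14, adjusted p = 0.25).

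Of the UGTs called up, the most abundant was *ugt-44* (chromosome IV, 10469741 to 10471899). Its normalized counts were 676, 664 and 718 in NHS and 3009, 3974 and 2302 in HS. The NHS libraries lay close together and every HS library was above them. It rose by 2.14 on the log2 scale (SE 0.19, adjusted p = 4.2e-04), a 4.51-fold higher mean, and it was called under every alternative. Its neighbour *ugt-43*, which starts 5.153 kb before it, went from 25.5, 22.4 and 20.0 to 89.3, 61.0 and 44.2, a rise of 1.43 on the log2 scale (SE 0.27, adjusted p = 0.0023). That call was lost without HS replicate 1 (adjusted p = 0.0103) and with quantile normalization.

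*ugt-14* (chromosome V, 4906253 to 4908304) measured 28.5, 45.1 and 50.6 in NHS and 201, 389.9 and 473 in HS. The groups were far apart and replicate 1 was the lowest in both. Its log2 fold change of 3.02 had an SE of 0.36 (adjusted p = 8.3e-04), and with the replicate block its SE fell to 0.15. *ugt-10*, in the same cluster, went from 32.4, 41.8 and 31.04 to 64.1, 64.5 and 117. Its log2 fold change of 1.15 (SE 0.26, adjusted p = 0.0056) lost its call without any of the NHS replicates or without HS replicate 3 (highest adjusted p = 0.025), and with equal totals or quantile normalization.

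The other UGTs called up had few reads before heat shock. *ugt-35* measured 1.97, 0 and 0 in NHS and 15.3, 16.6 and 17.9 in HS, about 2 reads against 45. Corrected for depth, the ratio of HS to NHS was 27.5, with a 95% counting interval from 7.19 to 234. *ugt-38* measured 1.97, 0.835 and 1.77 in NHS and 20.1, 10.4 and 45.5 in HS, about 5 reads against 64, a ratio of 15.7 (95% counting interval 6.38 to 49.9). Both sets of groups were far apart, and limma gave log2 fold changes of 3.61 (SE 0.51) and 3.18 (SE 0.52), which depend on the added 1. *ugt-27* rose from 8.85, 4.17 and 7.10 to 28.7, 23.9 and 13.8, by 1.58 on the log2 scale (SE 0.38, adjusted p = 0.0083). That call was lost when any library other than HS replicate 3 was left out (highest adjusted p = 0.041), with equal totals or quantile normalization and with a minimum mean of 10, under which *ugt-35* was not tested.

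**Figure D2:**
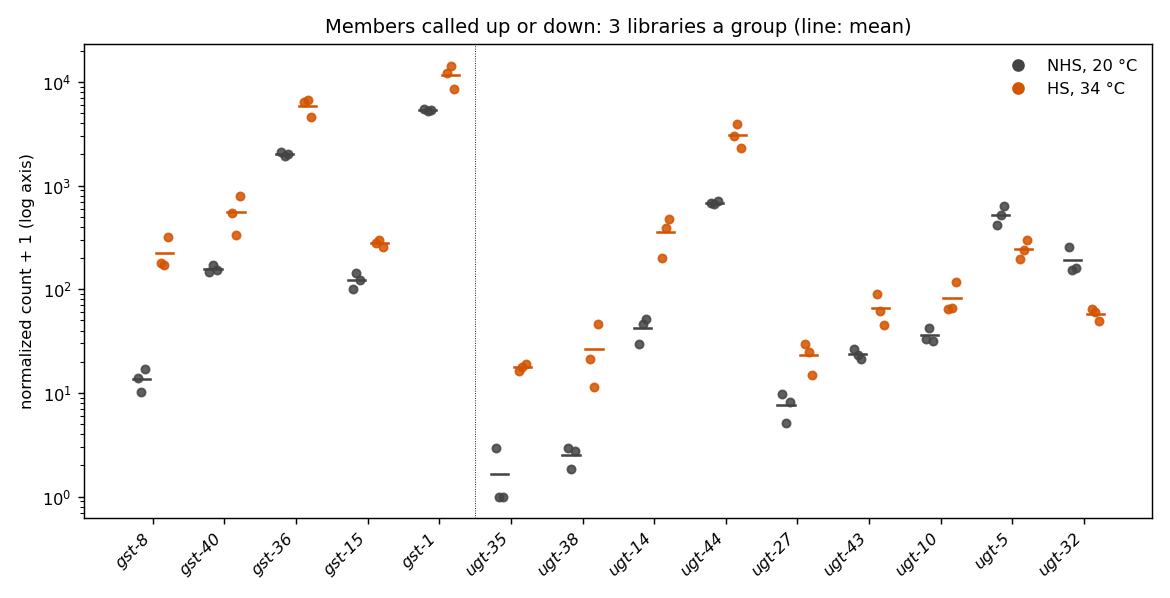
Normalized count + 1 (log axis) of the 14 members called up or down in each of 3 NHS (grey) and 3 HS (orange) libraries, with a line at each mean. The groups do not overlap for any of the 14, *ugt-35* has 0 in 2 NHS libraries, and *ugt-5* and *ugt-32* are the 2 that are lower in HS.

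Among the UGTs *ugt-32* and *ugt-5* fell. *ugt-32* (chromosome V, 3841794 to 3844007) measured 257, 154 and 161 in NHS and 63.2, 59.3 and 48.3 in HS. All HS libraries were below all NHS libraries. Its log2 fold change of -1.69 (SE 0.21, adjusted p = 2.5e-04) was called down under every alternative. *ugt-5* (chromosome V, 12790676 to 12792965) fell from 415, 518 and 635 to 196, 237 and 301, by 1.09 on the log2 scale (SE 0.19, adjusted p = 0.0031). Replicate 1 was the lowest and replicate 3 the highest in both groups, and the replicate block lowered its adjusted p to 1.3e-05. Without the block the call was lost when NHS replicate 2 or 3 or HS replicate 1 or 2 was left out (highest adjusted p = 0.016) or with quantile normalization. In a limma fit without the trend and robust variances, *gst-1*, *gst-40*, *ugt-5*, *ugt-10*, *ugt-27* and *ugt-43* lost their calls.

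*ugt-16* (chromosome V, 12825024 to 12827442) showed the same order of replicates. It measured 2656, 4233 and 4786 in NHS and 913, 1155 and 1848 in HS. Every HS library was below every NHS library, and its mean was 2.98-fold lower, which missed the adjusted p (log2 fold change -1.59, SE 0.37, 0.024). With the replicate block the SE was 0.09 and the adjusted p 6.6e-06. *ugt-57* (chromosome X, 6991727 to 6994162) went from 2424, 2381 and 3198 to 755, 1066 and 1608, a difference of -1.28 on the log2 scale (SE 0.31, adjusted p = 0.028, with the block 9.4e-04). *ugt-4*, next to *ugt-5*, had 45.9, 51.9 and 59.9 in NHS and 16.1, 24.8 and 34.3 in HS. Its log2 fold change of -1.09 (SE 0.28) had an adjusted p of 0.011, and 0.0032 with the block.

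With the block, 5 UGTs were called down in place of 2 and 8 up in place of 7, the added one being *ugt-18* (log2 fold change 1.05, adjusted p = 0.036, with the block 0.0035). In the block fit 10.9% of all genes were called up and 3.57% down. Without the block, the number of UGTs called down was 1 when NHS replicate 2, NHS replicate 3 or HS replicate 1 was left out and 4 without HS replicate 3. The number of GSTs called up, 5 with all libraries, was 3 without any of the NHS replicates or without HS replicate 1. *ugt-22*, the most abundant UGT in NHS, measured 6326, 7099.9 and 8865 in NHS and 4148, 4696 and 6356 in HS. These groups overlapped, its log2 fold change was -0.56 (SE 0.20, adjusted p = 0.076), and with the block the SE was 0.05 and the adjusted p 2.6e-05, under the fold limit.

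Part of the UGTs kept the order of the replicate numbers in both groups. Replicates 1, 2 and 3 ranked alike in NHS and HS for 22 of 67 UGTs (32.8%), 10 of 49 GSTs (20.4%) and 20.7% of all genes. Replicate 1 was the lowest of both groups for 18 UGTs (26.9%), 6 GSTs (12.2%) and 11.8% of all genes. *ugt-9* was such a gene, with 1367, 1998 and 2323 in NHS and 1299, 2006 and 2561 in HS, where the replicates differed far more than the groups (log2 fold change 0.02, SE 0.34). What separated the replicates was not tested.

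**Figure D3:**
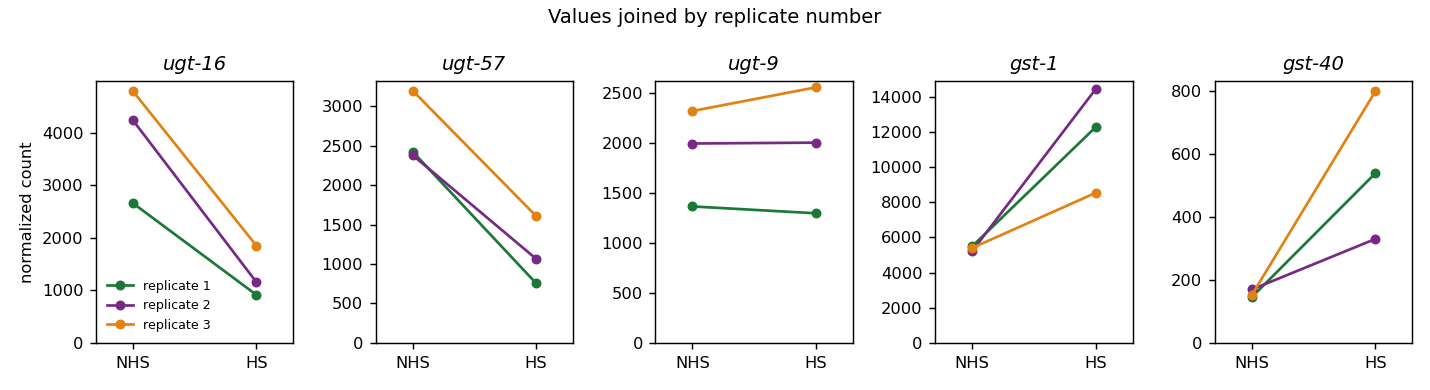
Normalized counts of 5 members in NHS and HS (vertical axes from 0), with libraries of the same replicate number joined. In *ugt-16*, *ugt-57* and *ugt-9* replicate 3 (orange) is the highest in both groups, whereas in *gst-1* and *gst-40* the NHS libraries lie together and the HS libraries fan out.

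Smaller falls past the adjusted p were spread over further UGTs. *ugt-51* fell from 95.4, 120.2 and 119.7 to 50.7, 76.9 and 42.8, just short of the fold limit (log2 fold change -0.999, SE 0.22, adjusted p = 0.0055). *ugt-11* had a mean 1.70-fold lower (adjusted p = 4.3e-04), *ugt-23* 1.61-fold lower (adjusted p = 8.1e-05) and *ugt-62* 1.36-fold lower (adjusted p = 0.0013). In each of these 4 genes all HS libraries were below all NHS libraries.

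Levels were compared between genes as normalized counts per kb of the longest annotated transcript. Before heat shock the GSTs were led by *gst-1* with 7175 ± 185 per kb (SD, n = 3), *gst-10* with 5941 ± 774, *gst-7* with 4916 ± 109, *gst-20* with 4775 ± 693 and *gst-5* with 4416 ± 667. *gst-7*, *gst-20* and *gst-5* did not differ beyond their spread, and *gst-1* was above them all. After heat shock *gst-1* stood at 15690.5 ± 3987 per kb, and *gst-36* had moved from rank 10 (2669 ± 131) to rank 2 (7808 ± 1493). *gst-8*, with the largest fold change, moved from rank 44 (17.8 ± 4.76) to rank 25 (312 ± 114).

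Among the UGTs the order at the top changed. In NHS *ugt-22* led with 3415 ± 598 per kb, followed by *ugt-58* with 3000.1 ± 315, *ugt-12* with 2878 ± 371 and *ugt-62* with 2753 ± 114, then *ugt-16* with 2168 ± 616. Neighbours in this order did not differ beyond their spread. In HS the highest mean was that of *ugt-13*, 2660.1 ± 532 per kb, before *ugt-58* (2419 ± 461) and *ugt-22* (2328 ± 528), which did not differ beyond their spread. *ugt-44* rose from rank 31 (377 ± 15.7) to rank 6 (1700.5 ± 461), while *ugt-16* went from rank 5 to 15 and *ugt-57* from rank 8 to 21.

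**Figure D4:**
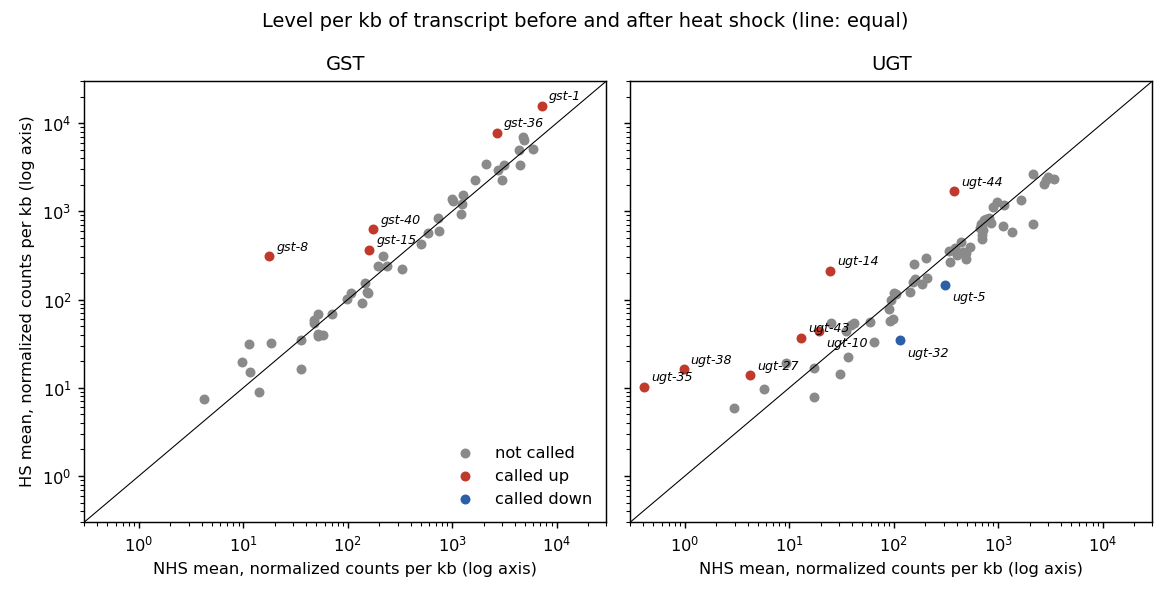
Mean normalized counts per kb in HS against NHS (both log axes), 1 point a member, with a line of equal levels. GSTs called up (red) lie at low and high levels up to *gst-1*; UGTs called up other than *ugt-44* and *ugt-14* lie at the low end, and of the most abundant UGTs *ugt-13* sits above the line and the others below it.

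Summed over the family, GST transcripts went from 44002 ± 1913 normalized counts in NHS to 58775 ± 3324 in HS (SD, n = 3), without overlap. As a share of each library's sum, they took 0.136% ± 0.0054 and 0.142% ± 0.0021, which overlapped. *gst-1* made up 43.2% of the rise in counts and *gst-36* 26.3%. Without both, the GST sum was 34344, 37130.4 and 38350.0 in NHS and 41749, 39794 and 41793 in HS, still without overlap in counts. The library sums were also higher in HS (39400000 to 43000000, against 32200000 to 32500000 in NHS). As a share of them, this GST sum was lower in every HS library than in every NHS library, so its direction depends on the scaling. UGT transcripts went from 69187 ± 4071 to 60173 ± 3038, without overlap, and from 0.213% ± 0.0118 to 0.145% ± 0.0118 of the library. The mean of *ugt-16* was lower by 2586 normalized counts, that of *ugt-22* by 2364 and that of *ugt-57* by 1525, and *ugt-44* gained 2409. Without *ugt-16*, *ugt-22* and *ugt-57*, left out because they fell most while *ugt-44* was kept, the UGT sum was 53875, 55160.0 and 56558 in NHS and 50877, 54603 and 52494 in HS. These groups overlapped, and the sum was lower in HS in each of the 3 pairs of libraries with the same number.

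Most members lie near each other in the genome. Of the GSTs 26 of 49 are on chromosome II, and of the UGTs 42 of 67 on chromosome V. Counting members whose starts lie within 20 kb of the next as a cluster, 16 clusters held 26 GSTs and 38 UGTs. All 7 UGTs called up, including *ugt-35* and *ugt-38*, which had to differ, were among the 38 in clusters. By limma 0 of the 29 UGTs outside were called up, beside 10.2% of all genes. Over all genes the share called up was 20.8% at a mean under 100 and 2.76% at 100 or more. Levels of the UGTs differed too, with a median NHS level of 146 normalized counts per kb in clusters and 494 outside. The part of level in these counts was not tested. At an unadjusted p under 0.05, 2 of these 29 were higher and 16 lower. The GSTs called up were 3 of 26 in clusters and 2 of 23 outside. The cluster of 9 GSTs at 13608154 to 13630887 on chromosome II held *gst-15* as its only call, and the cluster of 9 GSTs at 15163817 to 15185389 held none, with log2 fold changes from -1.04 to 0.21 and, at an unadjusted p under 0.05, 2 higher and 3 lower. The 8 UGTs at 4887165 to 4911399 on chromosome V held *ugt-10* and *ugt-14*, called up, beside *ugt-11*, which was lower. The pair of *ugt-43* and *ugt-44* was the only cluster whose members were all called. Reads of near-identical members cannot be assigned with certainty, and how alike the members are was not analysed here.

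**Figure D5:**
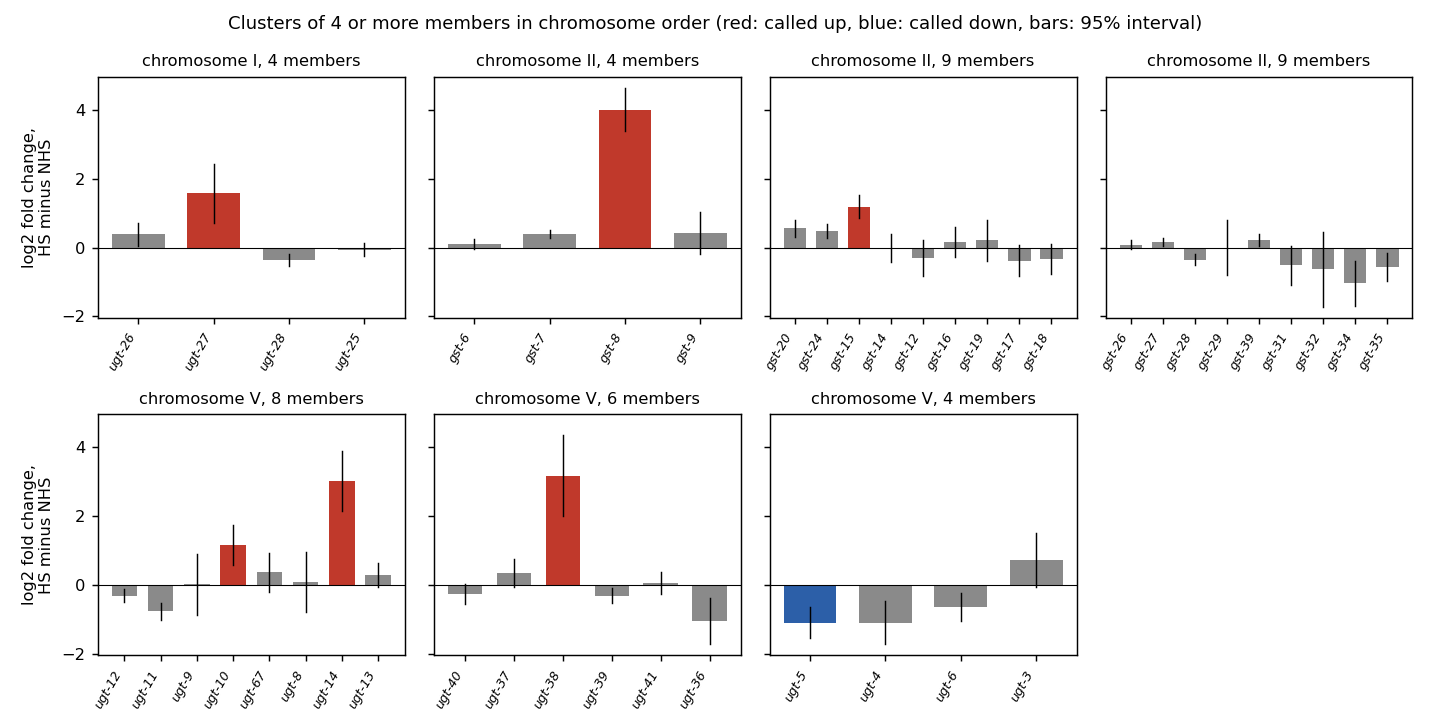
Log2 fold change (HS minus NHS) with 95% intervals of members in the 7 clusters of 4 or more, in chromosome order. Single genes such as *gst-8*, *ugt-14* and *ugt-38* stand above the members plotted next to them, whose values lie between -0.31 and 0.43. Genes of other families that lie between members are not shown.

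Other steps of the same pathway are given beside the 10.2% of all genes called up and 2.77% called down. None of 3 genes of glutathione synthesis and reduction was called, including *gcs-1*, which encodes the rate-limiting ligase (3494 to 3689 in NHS, 3984 to 4137 in HS). None of 8 glutathione peroxidases, 5 glutaredoxins, 30 short-chain dehydrogenases (*dhs*) or 13 regulators, *skn-1* among them, was called. Of the regulators *elt-2*, a transcription factor of the intestine and also one of its markers here, was higher in all HS libraries (833.6, 835 and 769 in NHS, 1319, 1359 and 1144 in HS), by 0.65 on the log2 scale with an SE of 0.08 and an adjusted p of 2.5e-04 by limma, below the fold limit. Of 3 genes that make, use or transport UDP-glucuronate, none was called, and *sqv-1* was 1.45-fold lower in HS (adjusted p = 5.1e-04). Of 8 MRP export pumps, which carry conjugates out of cells, none was called, and the mean of *mrp-5*, a heme exporter, was 1.56-fold lower (adjusted p = 1.5e-05). Together these 70 genes without a call gave 15 higher and 16 lower at an unadjusted p under 0.05 in limma, but the lists differed. The glutathione peroxidases gave 3 higher and 0 lower (median log2 fold change 0.34), and the glutaredoxins 1 and 0. The MRP pumps gave 1 higher and 3 lower, the UDP-glucuronate genes 0 and 2, and the *dhs* genes 6 and 8. The regulators gave 3 higher and 2 lower, and glutathione synthesis and reduction 1 and 1. Of 14 P-glycoproteins 1 was up, *pgp-7* (log2 fold change 1.29, adjusted p = 0.0041). At an unadjusted p under 0.05 in limma, 8 of the 14 were higher and 1 lower. Of 72 cytochrome P450 genes tested, which oxidize substrates before conjugation, 4 were up and 3 down. At the unadjusted limit 8 of the 72 were higher and 22 lower. The largest differences there were in *cyp-35A4* (log2 fold change -2.55), *cyp-13A11* (2.34) and *cyp-33B1* (2.13). *cyp-13A11*, with an NHS mean of 1.20, passed the minimum mean of 2 only through HS and so had to differ. *cyp-33B1* was also scarce, with an NHS mean of 2.92.

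In *C. briggsae*, 15 genes were named as members, 8 GSTs and 7 UGTs. Their names come from tables of the study that were partly chosen by response, so they are not a sample of the families. Of these, limma called 2 up and 0 down (6 higher and 4 lower at an unadjusted p under 0.05), beside 4.5% up and 1.73% down over all 18470 genes tested in that species. *Cbr-ugt-44* measured 399, 415 and 321 in NHS and 3176, 6512 and 8308 in HS, far above every NHS library. It rose by 3.88 on the log2 scale (SE 0.34, adjusted p = 9.1e-04), beside 2.14 for *ugt-44* in *C. elegans*. *Cbr-gst-15* rose from 38.1, 33.1 and 38.0 to 69.4, 130.5 and 94.2, by 1.36 on the log2 scale (SE 0.25, adjusted p = 0.0061), beside 1.19 in *C. elegans*.

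For the GSTs *gst-1* and *gst-36* the *C. briggsae* counterparts were higher in all HS libraries but were not called. *Cbr-gst-1* differed by 0.94 on the log2 scale (SE 0.23, adjusted p = 0.024) and *Cbr-gst-36* by 0.79 (SE 0.18, adjusted p = 0.017). The sign of the log2 fold change was that of *C. elegans* in 13 of the 15, the exceptions being *gst-40* and *ugt-1*, whose counterpart had a log2 fold change of -0.60 against 0.01 in *C. elegans*. The species were fitted apart, and differences between them were not tested.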

How the data were processed

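RNA-seq was done by the study on total RNA (stranded kit, single reads of 75 bases) from 6 *C. elegans* and 6 *C. briggsae* samples. The deposited signal values are normalized counts that the authors made by assigning reads to mRNA transcripts with Salmon 0.13.1 and dividing by DESeq2 1.18.1 factors within a species. Low values were whole multiples of 1 read in 90.8 to 92.0% of cases (tolerance 0.05), so counts were not recovered and count tests were not run. Columns not used numbered 0, and 1 *C. briggsae* column whose strain name differs from AF16 in 1 digit was taken as NHS replicate 3.

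Genes with a mean of at least 2 were fitted on log2(value + 1) with limma 3.58.1 in R 4.3.3 (trend and robust variances, two-sided, Benjamini-Hochberg over all genes, each species by itself). Alternatives were run for *C. elegans*. Calls needed both an adjusted p below 0.01 and a change of more than 2-fold. Intervals of read ratios cover counting error only. Data were also simulated from the NHS means and spreads for both groups, with changes only in genes with an NHS mean of at least 10. In these, 38.8% of genes changed 2-fold, 88.1% changed 4-fold and 95.5% changed 8-fold were called, with 16248 genes tested. A 2-fold change lies at the fold limit itself, which caps its share. Wider spread in HS and changes of scarcer genes were not simulated.

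Same-numbered N2 libraries deviated together (correlations 0.1809, 0.1608 and 0.2865 over 14632 genes, other pairs -0.2030 to 0.0339). The replicate number was therefore used as a block in an alternative fit, although no source states a shared batch. The main fit, which gave the calls, had no block and treated the libraries as unpaired. Positions and transcript lengths came from the WBcel235 annotation, Ensembl release 115, which names 19868 genes of the table. Protein identity and promoter motifs were not analysed here. The members and gene lists were chosen with earlier results of these data known. Members named are those called, the 5 largest and 5 smallest log2 fold changes of each family with a mean of at least 10, the 5 highest NHS levels per kb, all *gsto* and *gstk* genes, *gst-1* and *gst-36*. Further members and genes were named after their values were seen.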

Additional observations from a re-analysis of the deposited data

Results flagged for a closer look

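*gst-40* went in opposite directions in the 2 species. In *C. elegans* it measured 145, 169.5 and 153 in NHS and 538, 329.6 and 798 in HS, a log2 fold change of 1.74. In *C. briggsae* *Cbr-gst-40* measured 196, 219 and 218 in NHS and 163, 145 and 151 in HS, which differed by -0.46 on the log2 scale (SE 0.11, adjusted p = 0.019, limma) and was not called. Every *C. elegans* HS library lay above its NHS libraries and every *C. briggsae* HS library below them. The difference between the species was not tested.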

How the results depend on the processing

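Depth limits the members near 0 reads in NHS, and 3 libraries a group limit the rest. Of the alternative values for named members 509 kept direction and side of the threshold, 41 lost the call and 23 gained it. Of the 22 members named by rule but not called, 2 changed sign with equal totals, *gsto-3* to -0.33 and *gstk-2* to -0.052. Outside that set further uncalled members changed sign with equal totals, such as *gst-2* (0.29 to -0.055), *gst-27* (0.16 to -0.20) and *ugt-13* (0.28 to -0.075). Among the called members, 0 of the 14 changed sign under any alternative. With equal totals the calls up and down were 2 and 1 for GSTs, 10 UGTs down, and 1329 genes down in all, with medians of -0.20 and -0.34. Quantile normalization gave 1 GST down, 4 UGTs up and 4 down, 1019 genes up and 825 down, with medians of 0.091 and -0.098. With no fold limit 11 GSTs were higher and 3 lower, 11 UGTs lower, and 2765 genes higher and 2266 lower. At an adjusted p under 0.05, 1 GST and 6 UGTs were down. Without trend and robust variances 3 GSTs and 4 UGTs were up and 1 UGT down. A mean of at least 10 left 1129 genes up, with a median of -0.060 for the UGTs and -0.017 for all genes. Leaving out 1 library gave 3 to 6 GSTs up, 1 to 4 UGTs down, 1137 to 1611 genes up (fewest without HS replicate 1) and a UGT median between -0.20 and -0.028. With the replicate block as pairing, 5 UGTs were down, and beyond *gst-1*, *gst-40*, *gst-44*, *ugt-4*, *ugt-16*, *ugt-18* and *ugt-57* no call of a member changed. The cause of these differences was not tested. In *C. briggsae* the same-number correlations were 0.0244, 0.1162 and 0.1049, and those of other pairs -0.1061 to 0.0113. No replicate block was fitted in that species.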

Other observations

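The nearest genes on either side of each called member were looked up after the calls were known. Of the 12 members called up, 6 had a neighbour called up (50%), beside 18.5% of all 17472 tested genes with a position and 47.2% of the 1777 of them that were called up. *gst-1* lies 435 bases from *cls-2* on the same strand (log2 fold change 1.47) and 39 bases from *lin-12* on the opposite strand (2.17), both called up. *gst-36* overlaps *scav-5* by 93 bases on the opposite strand (log2 fold change 1.71, called up), and *R07B1.5* lies 619 bases away on its other side (3.36, called up). *gst-40* has *srt-23* on the same strand at 1417 bases (5.26, called up), and *gst-8* has *R05F9.7* at 1676 bases (2.93, called up). The libraries were stranded and the reads were assigned to annotated transcripts. Whether transcripts of neighbours contributed reads to these members was not tested.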
